A study of Mus musculus with 12 samples.

Results

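The genes of antigen presentation by major histocompatibility complex (MHC) class II, together with Cd207, were followed as a group of 9 named genes: H2-Aa, H2-Ab1, H2-Eb1, H2-DMa, H2-DMb1, Cd74, Ciita, Ctss and Cd207. They were taken by symbol, from the probes whose accession maps to those symbols. All 9 had a probe, all 9 were tested, and they stand among 25082 features tested, of which 17165 carry a gene symbol. The study hybridised 12 samples to Agilent 2-colour mouse arrays, the sample in Cy5 and a pool of all conditions in Cy3. A value given below as a level is the log2 ratio of sample to pool for 1 gene, and is not compared between genes. The samples are heterozygous for Eng (written "end +/-" in the titles and Eng+/- in the series text) or wild type (wt), at 50 or 90 d, and carry the title word clp, the word tpa or neither (called no named treatment), 1 array for each of the 12 combinations. The sources used here do not say what clp and tpa stand for, what the days count, or how many animals or cultures gave each sample. The titles of both wt samples with no named treatment hold the word pool. Each treatment level lies on its own slide of 4 arrays, so treatment and slide cannot be told apart, whereas both genotypes and both days lie on every slide.

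MHC class II molecules are heterodimers of an alpha and a beta chain that display peptides from taken-up protein to CD4+ T cells. The chains assemble on the invariant chain, which is cut down in endosomes by cathepsins, and an H2-DM heterodimer then exchanges the last fragment of it for peptide. Transcription of the class II chain genes depends on CIITA, a coactivator that docks on factors bound at X and Y boxes ahead of their starts. In skin the pathway is known best in Langerhans cells, the dendritic cells of the epidermis, whose C-type lectin langerin is the product of Cd207, and it is also used by dermal dendritic cells and macrophages.

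The sequences ahead of the starts are shown because the X and Y boxes are the feature by which the class II genes are known as a group. RefSeq promoter entries (GRCm38.p6) were held for 6 of the 9 genes, and H2-Ab1, Cd74 and Ciita are named only. Each window is printed 5′ to 3′ on the strand of its gene. For the first 3 genes it runs from 110 to 41 bases before the start, with capitals for the Y box (CCAAT, read here on the other strand as ATTGG) and for the letters AACNNNTG inside the X box. The Ctss window runs from 60 bases to 1 base before the start, with capitals only for GAAANNGAAA, the letters of an interferon response element.
H2-Aa, chr17:34287864-34287933, minus strand: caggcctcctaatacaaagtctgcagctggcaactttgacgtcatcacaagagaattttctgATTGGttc
H2-Eb1, chr17:34305757-34305826, plus strand: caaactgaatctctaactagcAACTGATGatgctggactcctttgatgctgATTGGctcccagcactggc
H2-DMb1, chr17:34153081-34153150, plus strand: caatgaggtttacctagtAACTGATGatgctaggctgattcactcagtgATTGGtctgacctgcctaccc
Ctss, chr3:95526726-95526785, plus strand: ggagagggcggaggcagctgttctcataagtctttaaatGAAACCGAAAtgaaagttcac

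The motifs were searched on both strands of the 250 bases before each start, with letters chosen after these sequences had been read. H2-Eb1 and H2-DMb1 held AACNNNTG followed by ATTGG, 30 bases on in H2-Eb1 and 31 bases on in H2-DMb1, counted from start to start. That pair, with a distance of 20 to 40 bases, was in 0.679% of 32851 promoter entries of the same length. It was also ahead of 3 of the 15 other class II pathway genes with an entry, H2-DMb2, H2-Eb2 and H2-Ob. H2-Aa held the Y box at 48 to 44 bases before the start without the letters AACNNNTG. CCAAT alone was in 33.8% of all entries and AACNNNTG alone in 31% of them. Ctss held GAAANNGAAA at 21 to 12 bases before its start, which 2.98% of entries hold. It also held AACNNNTG at 207 to 200 bases before the start and, on the other strand, at 46 to 39 bases, inside the printed window and not capitalised there. The 2 H2-DMa entries held a Y box only at 198 to 194 bases before the second start, and the Cd207 entry held none of the 3 motifs. These matches describe letters and do not show that a factor bound.

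The Eng probe itself was lower in Eng+/- than in wt in 5 of 6 pairs, by 0.28 to 1.61 on the log2 scale, and higher by 0.63 in the pair labelled tpa at 50 d. The labels call the material E14 embryonic stem cells, and of 9 stem cell genes listed, 6 were well above background on all 12 arrays (Nanog, Dppa5a, Utf1, Tdgf1, Esrrb and Klf4), Sox2 on 7, Pou5f1 on 1 and Zfp42 on 0. All 10 keratinocyte genes listed were above background on all 12. Of 22 other Langerhans and dendritic cell genes, 19 were above background on all 12 arrays, Ly75 was above on 0 and Itgae had no probe. The pool channel should be alike on all arrays, and its median correlation with the other arrays was 0.991 to 0.994, except for wt with no named treatment at 50 d (0.974) and wt with clp at 90 d (0.973). Every probe of the 9 genes was above background in both channels on all 12 arrays, so their limit was at the bright end. In Cy5, H2-Ab1 and H2-Eb1 were saturated on 6 arrays (both with no named treatment at 90 d, and all 4 with tpa), and Cd74 and Ctss on 4 arrays each. No array with clp was saturated for any of the 9 genes, and H2-Aa, H2-DMa, H2-DMb1, Ciita and Cd207 were saturated on none.

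For each of the 9 genes the mean level was lowest on the clp arrays, and for some the single arrays overlapped with other treatments. With clp, the genes of the class II chains, both H2-DM chains and the cathepsin gene Ctss were lower than with no named treatment, and 6 of the 9 genes passed the test, all lower (adjusted p under 0.05 in limma across all features), against 3.5% of all features called lower. All 9 fitted differences were negative, with a median of -0.88 on the log2 scale against 0.01 over all features. The fitted fall of Ctss was 4.07-fold. As far as saturation goes, the falls of Ctss, H2-Ab1 and H2-Eb1 are lower bounds. Of 4 arrays with no named treatment, 1 was saturated for Ctss and 2 for each of H2-Ab1 and H2-Eb1. Cd74, Ciita and Cd207 did not pass the test. Other processing gave smaller falls, down to -1.22 for Ctss, -0.33 for H2-Ab1 and -0.51 for H2-Eb1 on the log2 scale among 8 settings. The calls held in 6 of these 8 settings for Ctss and in 4 for H2-DMb1. They held in 5 for each of H2-Aa, H2-Ab1, H2-Eb1 and H2-DMa. All 4 clp arrays lay below all 4 arrays with no named treatment for 5 of the 9 genes, a pattern that 3.98% of features showed, and 7 of the 9 were lower in all 4 pairs matched for genotype and day, which 10.7% of features were. These are samples of whole RNA, in which fewer cells of a type and less RNA per cell cannot be told apart. The count of 6 fell to 0 without either wt array with clp, to 1 without Eng+/- with no named treatment at 50 d, to 2 without wt with no named treatment at 50 d, to 3 without either Eng+/- array with clp or any 1 tpa array, and to 0 with median centring in place of loess.

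**Figure D1:**
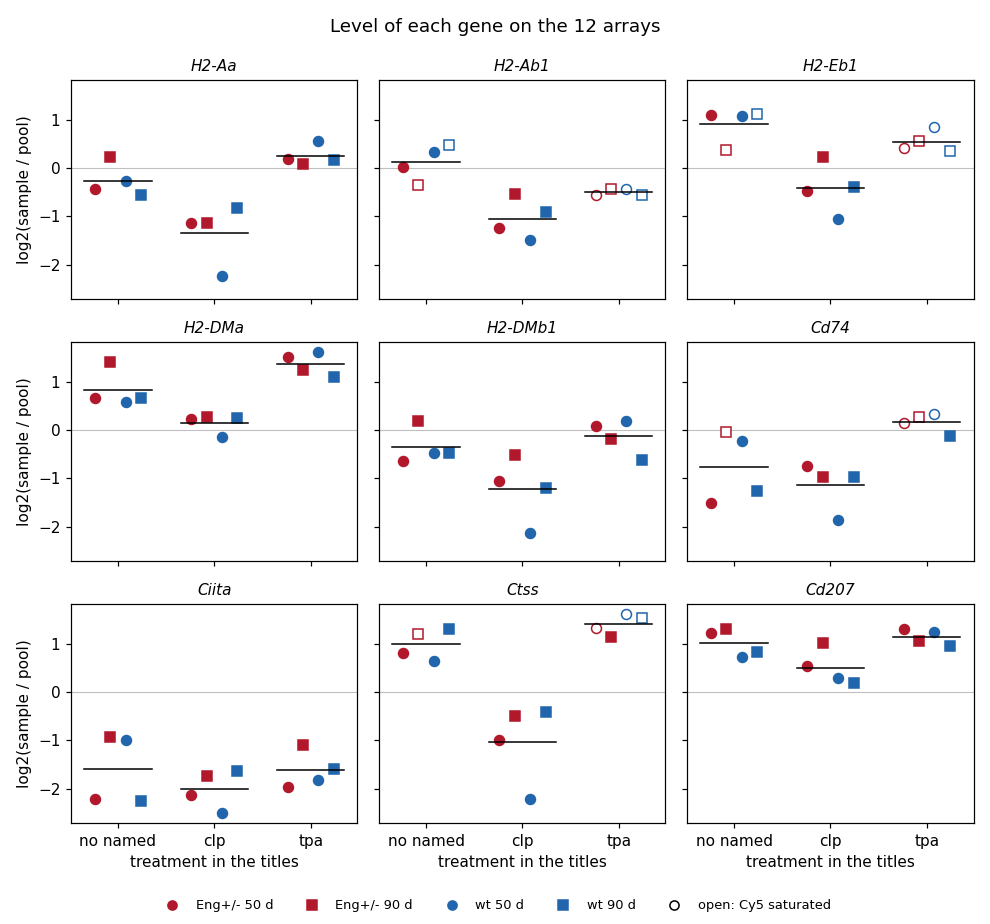
Level of each of the 9 genes on the 12 arrays, as the log2 ratio of sample to pool, by treatment; each point is 1 array, the colour is the genotype, the shape the day, the line the mean of 4 arrays, and open points are saturated in Cy5. For Ctss the 4 clp arrays lie between -2.22 and -0.42 and the other 8 arrays between 0.64 and 1.62, whereas for Ciita the 3 treatments overlap.

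Among the class II chain genes, H2-Aa encodes the alpha chain of the I-A molecule. Its levels with no named treatment were 0.22, -0.56, -0.43 and -0.27, in the order Eng+/- at 90 d, wt at 90 d, Eng+/- at 50 d and wt at 50 d, which is kept for every gene below. With clp they were -1.14, -0.83, -1.13 and -2.24, and with tpa 0.08, 0.16, 0.20 and 0.56. The clp arrays were the lowest 4 of the 12, and wt with clp at 50 d stood 1.11 below its Eng+/- partner. The gene fell with clp by 1.08 ± 0.26 (SE) against no named treatment, 2.11-fold (adjusted p = 0.041). Against tpa it fell by 1.58 ± 0.26, 3-fold (adjusted p = 0.012). The call against no named treatment held in 2 of the 12 fits that left out 1 array, those without wt with no named treatment at 90 d or Eng+/- with clp at 50 d, and the call against tpa in 10, those with both wt tpa arrays.

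H2-Ab1 encodes the beta chain that pairs with it. Its levels were -0.36, 0.47, 0.03 and 0.34 with no named treatment, the first 2 of them saturated, and -0.54, -0.91, -1.24 and -1.50 with clp. With tpa all 4 arrays were saturated, at -0.56 to -0.44, so they give a lower bound only. The gene fell by 1.17 ± 0.22 with clp against no named treatment (at least 2.25-fold, adjusted p = 0.0228), with 2 of the 4 arrays of the latter at the scanner's ceiling. The call was lost without either 50 d array with no named treatment, either wt array with clp, or Eng+/- with clp at 50 d (highest adjusted p = 0.0938). A second probe was itself saturated in Cy5 on 5 of the 12 arrays. Over all 12 its levels correlated with those of the first at r = 0.991. It gave -1.12 ± 0.23 for clp against no named treatment (adjusted p = 0.0288). Against tpa the level with clp was at least 1.46-fold lower and did not pass (adjusted p = 0.158).

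H2-Eb1 encodes the beta chain of the I-E molecule and carried the X and Y letters shown above. Its levels were 0.38, 1.12, 1.10 and 1.08 with no named treatment, the first 2 saturated. With clp they were 0.23, -0.39, -0.47 and -1.05, all below every array with no named treatment. The gene fell by 1.34 ± 0.25 against no named treatment (at least 2.53-fold, adjusted p = 0.022). With tpa all 4 arrays were saturated at 0.36 to 0.84, and clp was at least 1.96-fold lower than tpa (adjusted p = 0.0443). The call against no named treatment was lost without Eng+/- with no named treatment at 50 d or either wt array with clp (highest adjusted p = 0.0925). That against tpa held only without either 90 d array with no named treatment, 2 of the 12 fits that left out 1 array (highest adjusted p = 0.216), and in 2 of 8 other settings.

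The 2 chains of the H2-DM peptide exchanger moved together. H2-DMa, the alpha chain, had levels of 1.42, 0.67, 0.66 and 0.58 with no named treatment. They were 0.26, 0.25, 0.23 and -0.14 with clp, and 1.25, 1.09, 1.51 and 1.62 with tpa. The clp arrays held the lowest 4 levels, 3 of them within 0.04 of each other, and the Eng+/- array with no named treatment at 90 d lay among the tpa arrays. H2-DMa fell with clp by 0.68 ± 0.16 against no named treatment (1.61-fold, adjusted p = 0.0393) and by 1.22 ± 0.16 against tpa (2.33-fold, adjusted p = 0.00758). With 1 array left out, the first call held in 2 of 12 fits, those without either 90 d array with no named treatment (highest adjusted p = 0.147), and the second in all 12.

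H2-DMb1, the beta chain, had levels of 0.18, -0.47, -0.63 and -0.47 with no named treatment. On the clp arrays they were -0.51, -1.20, -1.06 and -2.14, and with tpa -0.19, -0.61, 0.09 and 0.19. Its clp levels overlapped both other treatments, through Eng+/- with clp at 90 d. It fell with clp by 0.88 ± 0.22 against no named treatment (1.84-fold, adjusted p = 0.0458) and by 1.10 ± 0.22 against tpa (2.14-fold, adjusted p = 0.0218). The call against no named treatment was lost in all 12 fits that left out 1 array (adjusted p = 0.0517 to 0.167) and in 4 of 8 other settings. That against tpa was lost without either wt array with clp, Eng+/- with tpa at 90 d or either wt array with tpa (highest adjusted p = 0.127). The copy H2-DMb2 is close in sequence, and its part in the signal of this probe was not tested; its own probe was called lower with clp as well, by -0.42 ± 0.10 (adjusted p = 0.0381).

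Ctss encodes cathepsin S, the endosomal protease that makes the last cuts in the invariant chain. Its levels were 1.21, 1.31, 0.82 and 0.64 with no named treatment and -0.49, -0.42, -0.99 and -2.22 with clp. With tpa they were 1.14, 1.53, 1.33 and 1.62, the last 3 saturated, as was Eng+/- with no named treatment at 90 d. The lowest level with no named treatment lay 1.06 above the highest clp level, so the groups were well apart. Ctss fell by 2.03 ± 0.26 against no named treatment (at least 4.07-fold, adjusted p = 0.0147). Against tpa, with 3 of its 4 arrays at the scanner's ceiling, it was at least 5.41-fold lower (fitted difference -2.44 ± 0.26, adjusted p = 0.00582). With 1 array left out, the call against no named treatment was lost without wt with clp at 90 d (adjusted p = 0.0548) or at 50 d (adjusted p = 0.0531). The call against tpa held in each of those 12 fits. Among 8 other settings the call against no named treatment held in 6 (highest adjusted p = 0.127).

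Cd74 encodes the invariant chain, on which the class II chains assemble. Its levels with no named treatment, -0.04, -1.26, -1.51 and -0.22, spread over 1.48, with Eng+/- at 90 d saturated. With clp they were -0.96, -0.97, -0.75 and -1.87, inside and just below that spread. With tpa they were 0.27, -0.12, 0.15 and 0.34, all but the second saturated, and all 4 lay above all 4 clp arrays. The difference of clp from no named treatment was -0.38 ± 0.37 (adjusted p = 0.549), negative in 2 of 4 pairs and positive, at 0.37, with median centring. Against tpa, with 3 arrays saturated, it was -1.30 ± 0.37 and missed the threshold (adjusted p = 0.0648), and 4 of the 12 fits that left out 1 array called it.

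Ciita encodes the coactivator of the class II genes. With no named treatment its levels were -0.93, -2.25, -2.20 and -0.99, in 2 pairs far apart, and the high pair is not of 1 genotype or day. With clp they were -1.74, -1.63, -2.14 and -2.50, and with tpa -1.08, -1.59, -1.96 and -1.82, so all 3 treatments overlapped. The difference of clp was -0.41 ± 0.33 from no named treatment (adjusted p = 0.461) and -0.39 ± 0.33 from tpa (adjusted p = 0.5). The level of wt with no named treatment at 50 d, an array whose pool channel stood apart, was -3.12 with the authors' processed signals, and the clp difference was then 0.01.

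Cd207, the Langerhans cell gene, varied least of the 9 over the 12 arrays, 2.16-fold in all, against at least 14.3-fold for Ctss. Its levels were 1.30, 0.84, 1.22 and 0.72 with no named treatment. On the clp arrays they were 1.02, 0.19, 0.55 and 0.29, and with tpa 1.06, 0.96, 1.30 and 1.25, with the highest clp level inside the range of the others. With clp it was lower in 4 of 4 pairs, by -0.68 to -0.28, and the fitted difference of -0.51 ± 0.16 missed the threshold (adjusted p = 0.0772), which it passed with the authors' processed signals (adjusted p = 0.0348) and with Cy5 alone (adjusted p = 0.00409). Against tpa the gene fell by 0.63 ± 0.16 (1.55-fold, adjusted p = 0.0421), a call that was lost in 3 of 8 other settings, the processed signals among them (adjusted p = 0.0671), with a highest adjusted p of 0.126. With 1 array left out it held in 5 of 12 fits, those without an array with no named treatment or Eng+/- with clp at 90 d (highest adjusted p = 0.215).

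**Figure D2:**
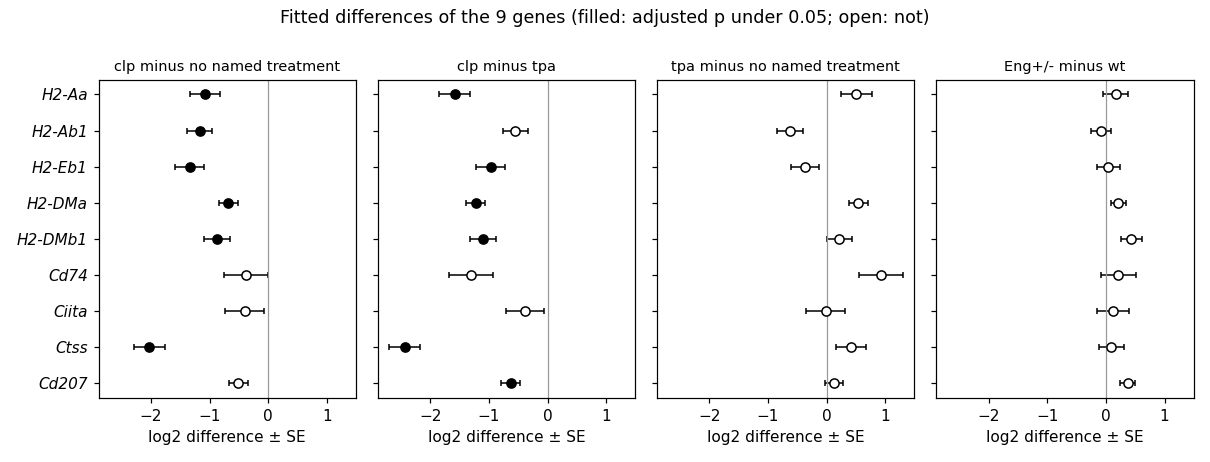
Fitted log2 difference of each of the 9 genes (points, with bars of 1 SE) in 4 comparisons; filled points passed an adjusted p of 0.05 over 25082 features. In both clp comparisons 6 of the 9 points are filled, all on the negative side, and in the tpa and genotype comparisons none is.

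Against tpa, 6 of the 9 genes fell with clp, against 4.54% of features called lower, and the median of the 9 was -1.10 against 0.05 over all features. The set of 6 differed from that against no named treatment by Cd207, called here alone, and H2-Ab1, called there alone; the change between these calls was not tested, and both comparisons share the clp arrays. All 9 genes were lower with clp in all 4 pairs, which 13.3% of features were, and for 5 of the 9 all clp arrays lay below all tpa arrays, which 7.97% of features showed. H2-Aa, H2-DMa and Ctss were called under each of the 8 alternative settings tried besides leaving out single arrays. The count of 6 was 2 without wt with tpa at 90 d or 50 d, and 3 without Eng+/- with tpa at 90 d, wt with clp at 90 d or wt with clp at 50 d.

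Other genes of the pathway were counted in the same comparisons. Of 20 other class II pathway genes tested, 3 fell with clp against no named treatment and 0 rose (median -0.30), and 4 fell against tpa. The largest falls were those of the costimulatory ligand gene Cd86 (-0.89 ± 0.14, adjusted p = 0.0174) and of Cd40, the receptor for CD40 ligand (-0.74 ± 0.13, adjusted p = 0.0202), and against tpa those of Cd86 (-1.08) and the endosomal protease gene Lgmn (-0.86). In the class I pathway, 7 of 20 genes fell and 1 rose (median -0.59). H2-M3, a non-classical class I gene, fell by 1.49 ± 0.22 (adjusted p = 0.0174), and Nlrc5, the coactivator of class I genes, fell by 1.07 ± 0.16 (adjusted p = 0.0174). Against tpa 5 of the 20 class I genes fell, H2-M3 by 1.10 and the immunoproteasome gene Psmb8 by 1.05 the most. Of 16 genes of the interferon gamma pathway, 3 fell with clp against no named treatment (median -0.28), with the guanylate-binding protein gene Gbp3 at -1.34 and the transcription factor gene Irf1 at -1.24. Against tpa 8 of the 16 fell (median -0.61), Gbp3 by 1.45 and the immunity-related GTPase gene Igtp by 1.16.

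Lists of cell markers gave the following counts beside these. Of 17 other Langerhans and dendritic cell genes tested, 3 fell with clp against no named treatment and 3 against tpa. The lectin gene Cd209a (-1.04) and the lipid-presenting Cd1d1 (-0.80) fell most in the first, and Cd209a (-1.08) and the integrin gene Itgax (-0.67) in the second. Of 14 macrophage genes, 7 fell against no named treatment, most of all the receptor genes Csf1r (-1.91) and Adgre1 (-1.89), and 8 fell against tpa, with Mrc1 at -1.95 and Csf1r at -1.90. Of 8 pan-leukocyte genes, 3 fell against no named treatment, with Coro1a at -1.39 and Ptprc at -0.91, and 6 fell against tpa, with Tyrobp at -1.71 and Fcer1g at -1.69. Of 11 T cell genes, 4 fell against no named treatment, with Cd3g at -1.18 and Cd3e at -0.93, and 2 against tpa, Thy1 at -0.89 and Cd2 at -0.80. Of 7 B cell genes 0 were called in either comparison. Cd79a at 0.31 (adjusted p = 0.117) and Ms4a1 at -0.14 (adjusted p = 0.275) had the smallest p-values of these against no named treatment, and Ms4a1 at -0.28 (adjusted p = 0.0555) and Cd79a at 0.36 (adjusted p = 0.084) against tpa.

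Calls differed between the hair shaft, keratinocyte, fibroblast and embryonic stem cell lists. Of 12 hair shaft genes, 0 fell with clp and 3 rose against no named treatment, with a list median of 1.46, Lef1 at 1.41 and Foxn1 at 1.40, and 4 rose against tpa, with Hoxc13 at 1.74 and Dsg4 at 1.71. Of 10 keratinocyte genes 1 fell against no named treatment, the cornified envelope gene Lor at -1.07, and 0 were called against tpa, where Krt1 at -1.41 (adjusted p = 0.127) and Trp63 at 0.46 (adjusted p = 0.138) had the smallest p-values. Of 7 fibroblast genes 2 fell against no named treatment, Lum at -1.68 and Thy1 at -0.72, and 3 against tpa, with Lum at -1.15 and Pdgfra at -0.95. All 7 fitted differences were negative against no named treatment (median -0.72), and 5 of the 7 against tpa (median -0.89). Of 6 embryonic stem cell genes tested 0 were called, with Utf1 at -0.36 (adjusted p = 0.238) and Sox2 at -0.19 (adjusted p = 0.275) nearest against no named treatment, and Nanog at 0.49 (adjusted p = 0.115) and Sox2 at -0.28 (adjusted p = 0.136) against tpa. Thy1 stands in both the T cell and the fibroblast list.

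The mean level of the 9 genes ran from -1.49 to -0.43 on the clp arrays, from -0.10 to 0.38 with no named treatment and from 0.13 to 0.46 with tpa, so the clp arrays stood below the rest. The mean of the 8 pan-leukocyte genes ran from -1.68 to -0.76 with clp, from -0.88 to 0.21 with no named treatment and from -0.04 to 0.20 with tpa. That of the macrophage genes ran from -0.98 to -0.32 with clp and from 0.05 to 0.61 on the other arrays. T cell genes likewise lay lower on the clp arrays, at -0.93 to -0.65, than on the other arrays, at -0.56 to -0.30. Fibroblast genes did so too, at -1.24 to -0.44 with clp against -0.33 to 0.38 on the other arrays. The part of these lists in the levels of the 9 genes was not tested. The 3 arrays with the lowest hair shaft means, Eng+/- with no named treatment at 90 d (-4.68), wt with tpa at 50 d (-4.18) and Eng+/- with tpa at 50 d (-3.79), were 3 of the 4 arrays with the highest means of the 9 genes. The part of the hair shaft signal in this was not tested either.

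**Figure D3:**
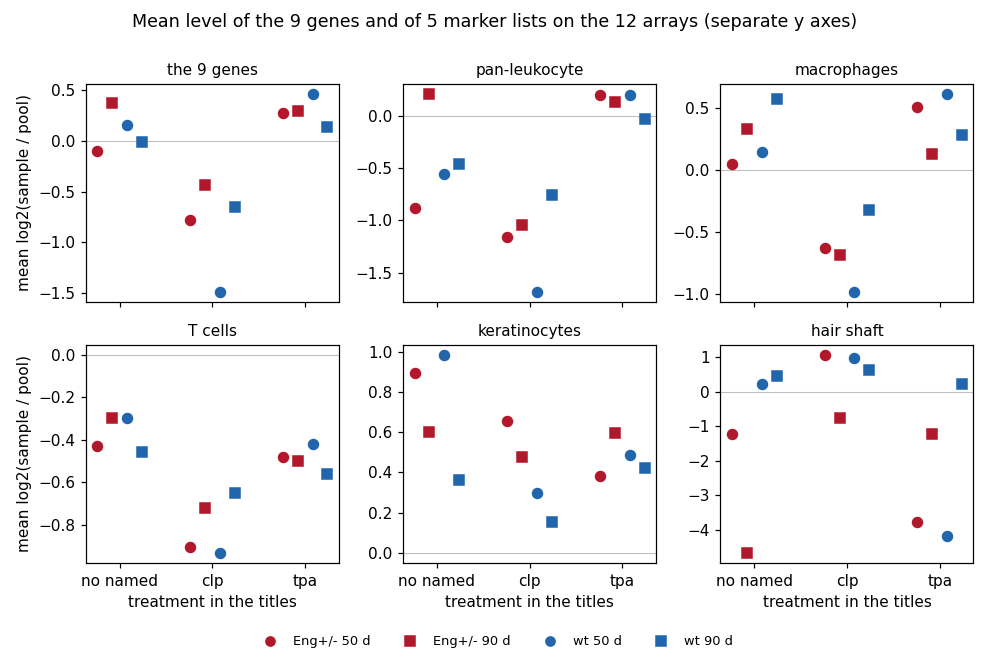
Mean log2 ratio of sample to pool over the 9 genes and over 5 marker lists, by treatment; each point is 1 array, the colour is the genotype, the shape the day, and each panel has its own y axis. The clp arrays are lowest for the 9 genes (-1.49 to -0.43) and for macrophage genes (-0.98 to -0.32), and 3 arrays outside clp lie at -3.79 or lower for hair shaft genes.

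With tpa none of the 9 genes was called against no named treatment, where 0.0279% of features were called higher and 0.104% lower. In limma, 6519 of 25082 features and 3 of the 9 genes had an unadjusted p under 0.05. The fitted differences were 0.50 ± 0.26 for H2-Aa (adjusted p = 0.247), 0.54 ± 0.16 for H2-DMa (adjusted p = 0.102) and 0.92 ± 0.37 for Cd74 (adjusted p = 0.164). Cd74 was higher with tpa in 4 of 4 pairs, as were 15.2% of features, and 3 tpa arrays were saturated for Cd74. For H2-Ab1 (-0.62) and H2-Eb1 (-0.37) the direction cannot be read, since all 4 tpa arrays and 2 of the arrays with no named treatment were saturated. The Ctss difference of 0.41 is likewise truncated, with 3 tpa arrays and 1 with no named treatment saturated. H2-DMb1 at 0.22, Cd207 at 0.12 and Ciita at -0.02 were within 2 standard errors of 0. With median centring H2-DMa and Cd74 were called higher, at 1.19 and 1.51 (adjusted p = 0.039 for each). Without Eng+/- with no named treatment at 90 d, 2 genes were called, H2-Ab1 lower (adjusted p = 0.0156) and H2-DMa higher (adjusted p = 0.0161). In the lists of other class II, Langerhans and dendritic cell, and interferon gamma genes 0 were called with tpa.

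The comparison of genotypes asks whether loss of 1 Eng copy went with other levels of these genes. None of the 9 was called over the 6 pairs, as were 0% of features in either direction (in limma, 3336 features and 2 of the 9 genes had an unadjusted p under 0.05). Cd207 was higher in Eng+/- in 6 of 6 pairs, by 0.46 and 0.50 with no named treatment at 90 and 50 d, by 0.83 and 0.26 with clp, and by 0.10 and 0.05 with tpa. Of all features, 3.21% were higher in 6 of 6 pairs, and Cd207 alone of the 9 genes was. Its fitted difference was 0.37 ± 0.13 (1.29-fold, adjusted p = 0.331). H2-DMb1 had the largest fitted difference, 0.43 ± 0.18 (adjusted p = 0.362), and was higher in 4 of 6 pairs. The other 7 lay between -0.09 and 0.21, with saturated arrays among those of H2-Ab1, H2-Eb1, Cd74 and Ctss, and 0 genes of any marker list were called.

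Single pairs of arrays, 1 array a side and so without a test, differed by 2-fold or more as follows. With no named treatment at 90 d, 2 of the 9 genes were at least 2-fold higher in Eng+/-, as were 5.49% of features: Ciita by 1.32 and Cd74, saturated in Eng+/-, by at least 1.23 on the log2 scale. At 50 d the same 2 genes were at least 2-fold lower in Eng+/-, as were 4.05% of features: Cd74 by -1.29 and Ciita by -1.21. With the authors' processed signals the Ciita levels at 50 d were -3.09 in Eng+/- and -3.12 in wt. Only Cd74 was thus 2-fold lower there with those signals, as were 6.78% of features. The wt array of that pair is one whose pool channel stood apart. With clp at 50 d, all 9 genes were higher in Eng+/- and 4 of them at least 2-fold, against 1.3% of features: Ctss by 1.23, Cd74 by 1.12, H2-Aa by 1.11 and H2-DMb1 by 1.08. In the other 3 pairs 0 of the 9 genes were 2-fold apart, where 6.97% of features were with clp at 90 d, 1.48% with tpa at 90 d and 0.439% with tpa at 50 d. With median centring 0 genes were 2-fold apart with clp at 50 d. With no named treatment at 90 d 7 were then higher, as were 34% of all features. At 50 d H2-Eb1, H2-DMa, Ctss and Cd207 were then higher, as were 27.3% of features, and Cd74 and Ciita were not 2-fold apart.

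**Figure D4:**
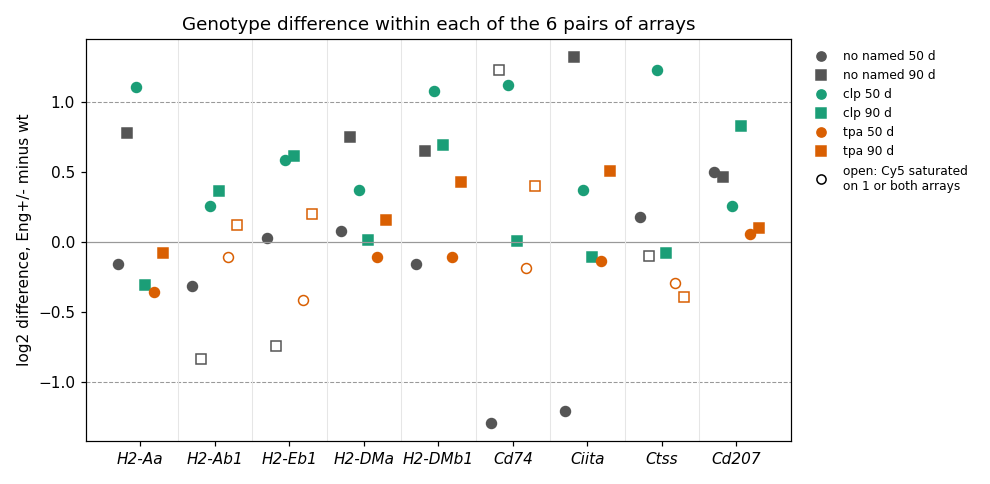
Difference of Eng+/- minus wt in log2 ratio for each of the 9 genes within the 6 pairs of arrays; each point is 1 pair, the colour is the treatment, the shape the day, open points rest on a saturated array, and dashed lines mark 2-fold. Cd207 is above 0 in all 6 pairs (0.05 to 0.83), and Cd74 and Ciita pass 2-fold in opposite directions with no named treatment at 90 and 50 d, for Ciita not with the authors' processed signals.

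Between the days, none of the 9 genes was called within any treatment, 0% of features were called in each of these 3 limma comparisons, and 0% for a day by treatment interaction. Unadjusted p values under 0.05 were found for 1377 features with no named treatment, 3165 with clp and 1445 with tpa, and for 0, 2 and 0 of the 9 genes. With clp all 9 fitted differences of 90 d from 50 d were positive, with Ctss the largest at 1.15 ± 0.36 (adjusted p = 0.323), H2-DMb1 at 0.74 ± 0.31 and H2-Aa at 0.70 ± 0.37. Of the 9 genes, 6 were higher at 90 d in both clp pairs, as were 34.2% of features. H2-Aa (-0.006) and Cd74 (-0.215) were lower in Eng+/-, and Cd207 (-0.097) in wt. The H2-Aa difference in wt was 1.41. With tpa the 5 genes with no saturated array gave -0.54 for H2-DMb1, -0.39 for H2-DMa, -0.27 for Cd207, -0.26 for H2-Aa and 0.56 for Ciita, and the signs of the other 4 are not counted. With no named treatment, where both 90 d arrays were saturated for H2-Ab1 and H2-Eb1, the other 7 ran from 0.01 for Ciita to 0.53 for Ctss. The day by treatment test gave adjusted p values of 0.355 for H2-DMb1 and 0.43 for Ctss, and passed for none of the 9 genes.

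Across the 12 arrays the 9 genes rose and fell together to unequal degrees, which is given as a description of arrays that share a pool and, in fours, a slide. The highest Pearson correlations were 0.95 for H2-Aa with Ctss, 0.94 for H2-Ab1 with H2-Eb1 and 0.94 for H2-Aa with H2-DMa. The lowest were 0.18 for H2-Ab1 with Cd74 and 0.27 for Ciita with Cd207. H2-Ab1 and H2-Eb1 share the same 6 saturated arrays. Ciita correlated with the other 8 genes at 0.27 to 0.68, the last with Cd74.

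Outside the 9 genes, the named genes whose levels ran most alike over the 12 arrays were as follows. For H2-Aa they were Ms4a7 (r = 0.98), Gpr34 and Clec4a1, and for Ctss Clec4a1 (r = 0.985) and Inpp5d. For H2-DMa they were Cd200r1 (r = 0.974), Slc14a1 and Man1c1, and for H2-DMb1 Lyl1 (r = 0.978), Cd209a and Gsdmd. H2-Ab1 ran most like Hsd17b11 (r = 0.967), Coro2b and Ripor1, and H2-Eb1 most like Prkcb (r = 0.978), Lum and Pik3cd. Cd74 ran most like Mcpt-ps1 (r = 0.963), Tnfaip8l2 and Cma2. Ciita ran most like Aadacl4fm2 (r = 0.939), Ctsw and Mrgprf, and Cd207 most like Sectm1a (r = 0.968), Il2rb and Ikbip.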

How the data were processed

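Each deposited scanner file gives spot, local background and processed signals as intensity for Cy5 and Cy3, with flags, and comes, per the file headers, from Feature Extraction 10.7.3.1 (10.0 per the submitters' processing notes). The authors' processed signals are background-subtracted and dye-normalized per the file headers, and the deposited log10 values are their Cy5 to Cy3 ratio. Median signals were processed in R 4.3.3 with limma 3.58.1: normexp (offset 50), loess within arrays with control spots at weight 0, spots of a probe averaged, and 975 of 39429 probes left out for outlier flags. Probes whose Cy5 was well above background on at least 2 arrays were tested, and the brightest probe stood for a gene. All 12 arrays entered 1 model of genotype and the 6 combinations of treatment and day (eBayes with trend, 5 residual degrees of freedom, Benjamini-Hochberg over all features). Each condition has 1 array per genotype, so p-values measure the spread between these arrays. The small number of arrays limits precision. A fold whose brighter group alone has saturated arrays is given as "at least". That wording refers to saturation only, and the SE and other settings allow smaller folds. The members and lists were chosen with earlier results of these data known. All 9 members are named in each comparison. Of each list the 2 called genes with the largest difference, or else the 2 with the smallest p, are named in both clp comparisons, and elsewhere only its counts, which shortens the rule. For each member the 3 genes with the highest correlation over the arrays are named, except 1 that is not reported here. The script was tested on simulated data. Series text that gives Cy3 to wt RNA, dye swaps and an Axon scanner was not borne out by the array labels and headers.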

Additional observations from a re-analysis of the deposited data

Results flagged for a closer look

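The difference between 90 and 50 d took opposite fitted signs in different treatments for 4 genes. Both genotypes shared each sign as measured, with a limit for Ctss given below. Of all features, 18.9% were higher at 90 d in both pairs with no named treatment and 34.2% in both with clp. With tpa 29.6% were lower in both. The share with opposite signs was not counted. Some pairs differed little, by 0.004 for H2-DMb1 in wt with no named treatment and 0.034 for H2-DMa in Eng+/- with clp. For H2-DMa the difference was 0.43 with no named treatment, 0.22 with clp and -0.39 with tpa. H2-DMb1 gave 0.41, 0.74 and -0.54 in the same order, and Ctss 0.53, 1.15 and -0.14. For Ctss both wt arrays with tpa were saturated, so the sign in that pair cannot be read. Nor can that of the fitted -0.14, which that pair enters. Cd207 gave 0.10 with no named treatment and -0.27 with tpa. Each rests on 2 pairs of arrays a treatment. The limma day by treatment test did not pass for any of them, with an adjusted p of 0.411 for H2-DMa, 0.355 for H2-DMb1, 0.43 for Ctss and 0.677 for Cd207.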

How the results depend on the processing

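The count of genes called lower with clp depended on the processing more against no named treatment than against tpa. H2-Eb1 went the other way, with its call held in 5 of 8 other settings against no named treatment and in 2 of 8 against tpa. Against no named treatment, 6 genes were called; the count was 0 with median centring, 3 with an additive model, 0 without the 2 wt arrays whose pool channel stood apart, and 0 to 5 when 1 array at a time was left out. Against tpa, 6 were called; the count was 3 with the additive model, 3 without those 2 arrays, and 2 to 7 with 1 array left out. With tpa against no named treatment 0 were called, 2 with median centring, and 0 to 2 with 1 array left out. Genes at least 2-fold apart in a genotype pair numbered 7 in place of 2 with median centring with no named treatment at 90 d, where 34% of features were higher. At 50 d, 2 were lower with loess (4.05% of features) and 1 with the processed signals (6.78% of features). With median centring 4 other genes were higher there, as were 27.3% of features. With clp at 90 d, genes at least 2-fold apart numbered 1 in place of 0 with the processed signals, where 9.04% of features were higher and 9.62% lower. With clp at 50 d they numbered 0 in place of 4 with median centring, where 2.53% of features were higher and 6.31% lower. Median centring moved the median of all features to 0.24 for clp and 0.34 for tpa against no named treatment and to 0.11 for genotype, and 88.6% of its calls for clp were higher, against 54.9% with loess; Cy5 alone moved these medians to -0.25, -0.47 and -0.18. Over all features, the 1948 calls for clp against no named treatment became 4086 with the processed signals and 733 with the additive model, and the 33 calls for tpa became 1036 with median centring and 882 with Cy5 alone. The 0 genotype calls became 222 with median centring and 265 with Cy5 alone, none of them a gene of the 9. The cause was not tested. Genotype fitted without the treatment-by-day conditions as a pairing block called 0 of the 9. Saturation limits H2-Ab1, H2-Eb1, Cd74 and Ctss at the bright end.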
